A study of Mus musculus with 13 samples.

Results

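Mitochondria fold the proteins they import with chaperones of their own and degrade damaged ones with proteases of their own, and 10 nuclear genes of this machinery were followed in mouse lung: Hspa9, Grpel1, Dnaja3, Hspd1, Hspe1, Trap1, Lonp1, Clpp, Clpx and Yme1l1. The genes were chosen by symbol for their role in mitochondrial protein quality control, and partly on the measured rise of Hspa9 in the comparison described here. All 10 were found among the 32544 gene symbols of the count table and all 10 passed the filter on low counts, which left 12496 genes to test. The lungs came from WT male C57BL/6J mice, bought at 7 weeks of age, that breathed either 21% oxygen (normoxia, 7 samples) or 80% oxygen (hyperoxia, 6 samples) for 5 days. No other genotype or agent entered these groups, and the whole perfused lung was homogenised, so each value is an average over all lung cell types. RNA was read by Quant-seq, a method that sequences the 3′ end of each polyadenylated transcript, so that a count follows the number of transcripts and not their length. The question put to the data was how the messages for the folding and the degrading arm moved at 80% oxygen, and whether partners within a complex moved together.

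As background, most mitochondrial proteins are made in the cytosol and threaded unfolded through the inner membrane. The HSP70 of the matrix, mortalin (Hspa9), pulls them in with ATP, the chaperonin Hspd1 encloses them for folding under its lid Hspe1, and ATP-driven proteases remove what does not fold. When unfolded proteins accumulate in the matrix, mammalian cells can raise the genes of this machinery, a response called the mitochondrial unfolded protein response.

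The total count was between 1607111 and 4540288 per library, and the labels number the samples without saying whether each is a separate animal, so the p-values measure the spread between these samples. Levels are given as CPM, a gene's count on a total common to all libraries, scaled by TMM, a scaling that corrects for differences in RNA composition, and 3 counts correspond to between 0.656 and 1.84 CPM. The library of hyperoxia replicate 1 stood apart: its mean correlation with the other libraries was 0.779, against 0.886 to 0.919 for the other 12. Letters in the library names form a set from B to M (5 normoxic and 3 hyperoxic libraries) and a set from O to S (2 and 3), whose meaning the labels do not give, and differences within each set are given below. Markers of lung cell types also moved between the groups. Of 6 markers of alveolar type 2 cells, 5 were lower at 80% oxygen (summed level 12088 to 22775 CPM in normoxia and 3099 to 6719 CPM in hyperoxia), as were 4 of 4 of B cells (110.1 to 155.8 and 29.2 to 67.6 CPM) and 3 of 3 tested of T cells (26.2 to 53.9 and 8.69 to 26.3 CPM). Of 6 markers of club and ciliated cells, 3 were lower, Scgb1a1, Cyp2f2 and Dnah5 (summed level 14580 to 53164 and 268 to 10068 CPM). The club gene Scgb1a1 made up most of this sum, at a mean of 33862 CPM in normoxia. Foxj1 (log2 fold change -0.0077) and Ccdc39 (-0.095), markers of ciliated cells, did not pass, nor did the club gene Scgb3a2 (-1.28). Of 4 smooth muscle markers, 2 were higher (summed level 209.1 to 288.8 and 278.3 to 554 CPM), and 1 without hyperoxia replicate 1. Of 5 alveolar macrophage markers, Mrc1 was higher and Siglecf lower, and their summed level was 311.7 to 370.0 CPM in normoxia, 489.5 to 691 CPM in 5 hyperoxic libraries and 184 CPM in hyperoxia replicate 1. Of 4 tested fibroblast markers, Pdgfra was higher (summed level 1473 to 2174 and 2032 to 2675 CPM). Of 5 endothelial markers, Tek was lower and 2 others had a log2 fold change above 0. Their summed level was 2763 to 4885 CPM in normoxia and 1224 to 4799 CPM in hyperoxia, and 1 was higher and 2 lower without hyperoxia replicate 1. Of 5 markers of alveolar type 1 cells, Rtkn2 was lower (summed level 915 to 1338 and 588 to 1142 CPM). Among markers of neutrophils, adipocytes and proliferating cells edgeR called 0, with 1 at an unadjusted p under 0.05, and DESeq2 and limma-voom called 0. The part of these shifts in the results below was not tested. In bulk tissue, fewer cells of a type and less RNA per cell cannot be told apart.

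All 10 genes had a positive log2 fold change. The median of the 9 genes other than Hspa9 was 0.52, and that of all 12496 genes was -0.03. By edgeR's quasi-likelihood test with Benjamini-Hochberg adjustment over all genes tested, 3 of the 9 genes other than Hspa9 were higher at an adjusted p under 0.05, namely Hspd1, Clpp and Grpel1, where 11.8% of all genes were called higher. Hspa9 is left out of this count because its rise was a ground for the choice. The same edgeR test called 0 of the 9 lower, where 10.8% of all genes were lower. Also 0 of the 9 were lower at an unadjusted p under 0.05, by DESeq2 or by limma-voom. DESeq2 called 5 of the 9 higher, Clpx and Yme1l1 in addition, where it called 11.2% of all genes higher, and limma-voom called 3, where it called 11% of all genes higher. Of the 9, in Hspd1 alone every hyperoxic library lay above every normoxic library, a separation seen upwards in 5.6% of all genes. Nothing is read from these counts against the background, since the genes were chosen with results of this contrast known. Without hyperoxia replicate 1, the number called higher was 7 of the 9 in edgeR, with Hspe1, Clpx, Dnaja3 and Yme1l1 added, and 15.2% of all genes were then called higher.

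**Figure D1:**
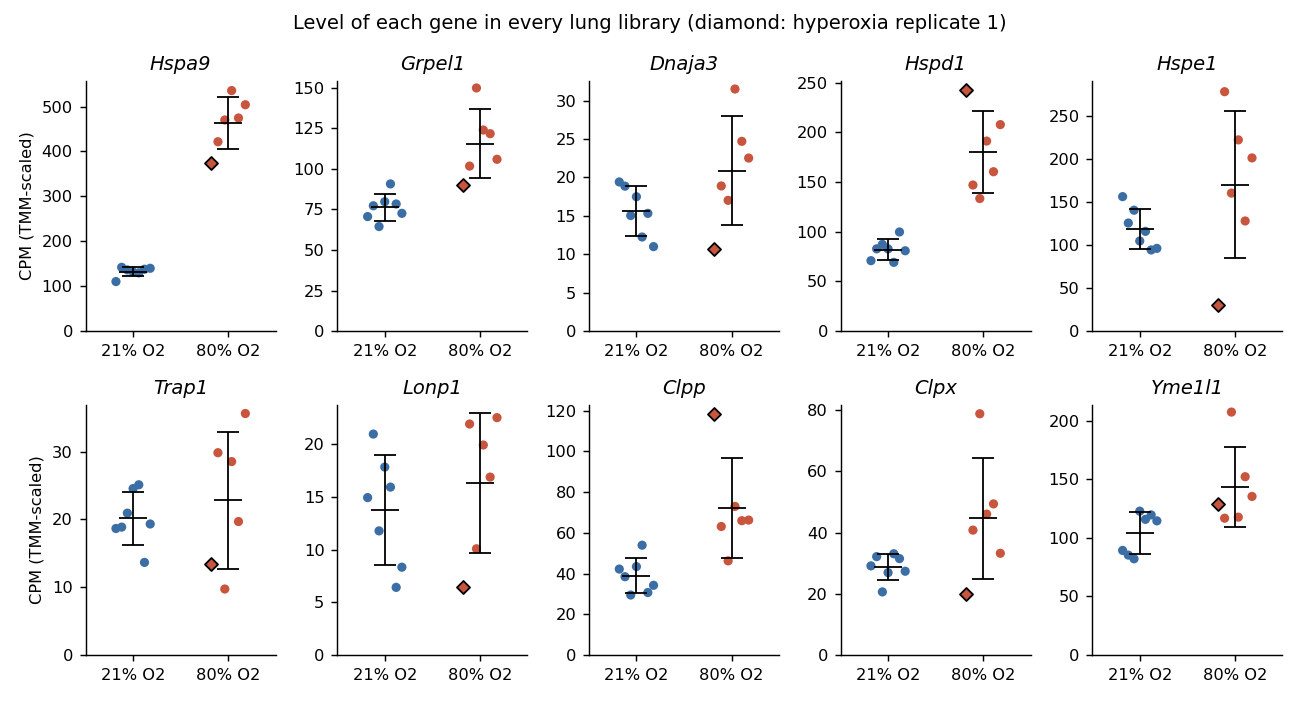
Level of each of the 10 genes in CPM (y axis, TMM-scaled, starting at 0) in the 7 libraries at 21% oxygen (blue) and the 6 at 80% oxygen (red); each point is 1 library, the horizontal line and bars give the mean and SD, and the diamond is hyperoxia replicate 1. The Hspa9 points separate fully (highest normoxic 142.2 CPM, lowest hyperoxic 374 CPM), while in Hspe1 and Clpx the diamond lies below all normoxic points and in Hspd1 and Clpp it is the highest point.

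Hspa9, the matrix HSP70 and the motor of protein import, carried the largest difference of the 10. It was at 111, 142.2, 136.4, 131.9, 129.9, 138.0 and 140.1 CPM in normoxia replicates 1 to 7. Hyperoxia replicates 1 to 6 held 374, 422, 470.1, 536, 475 and 504 CPM. The lowest hyperoxic library was thus above the highest normoxic one by a wide gap, and the spread within each group was small beside the difference. The means were 132.7 ± 10.7 CPM (SD, n = 7) and 463 ± 57.8 CPM (SD, n = 6), a log2 fold change of 1.80 (SE 0.12), or 3.49-fold. These are the values on which the choice of genes rests in part, so they are a description and no test is given. In log2 CPM the difference was 1.69 within the B to M set and 1.85 within the O to S set. On the GRCm38 build (mm10 in the submitters' processing notes) the gene spans 34937414 to 34954357 on the minus strand of chromosome 18.

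Hspa9 works with a nucleotide exchange factor that resets it after each cycle, Grpel1, and with J-domain proteins such as Dnaja3 (Tid1) that deliver clients and start the ATP cycle. Grpel1 ranged from 64.4 to 90.7 CPM in normoxia, with a median of 77.2 CPM. In hyperoxia it was at 90.1, 101.7, 149.7, 123.9, 121.6 and 105.8 CPM in replicates 1 to 6. Only the value of hyperoxia replicate 1 fell within the normoxic range, by a narrow margin. Grpel1 was higher by a log2 fold change of 0.60 (SE 0.14, edgeR adjusted p = 0.0050), with means of 76.2 ± 8.28 CPM (SD, n = 7) and 115 ± 21.0 CPM (SD, n = 6). The difference was 0.54 and 0.63 in log2 CPM within the B to M and O to S sets. At chromosome 5, 36464998 to 36474080 (plus strand), its 3′ end overlaps that of Tada2b on the other strand over 411 bases. Tada2b was itself at 17.0 ± 5.18 CPM (SD, n = 7) and 27.9 ± 5.80 CPM (SD, n = 6), and whether the counting used strand is not given in the sources used here, so reads in the overlap could come from either gene.

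Dnaja3 did not pass the test. It lay at 11.0 to 19.4 CPM in normoxia (median 15.3 CPM). Its values in hyperoxia replicates 1 to 6 were 10.7, 18.9, 17.0, 31.5, 24.7 and 22.5 CPM. The 3 hyperoxic libraries of the O to S set were above all normoxic libraries, whereas those of the B to M set were not. Its log2 fold change was 0.43 (SE 0.23, edgeR adjusted p = 0.206), and without hyperoxia replicate 1 it was 0.57 (SE 0.20, edgeR adjusted p = 0.0405). In log2 CPM the difference was -0.11 within the B to M set and 0.96 within the O to S set. The gene lies on chromosome 16 (4639989 to 4707695, plus strand), where it overlaps Coro7 and Vasn away from its 3′ end.

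The chaperonin of the matrix is a barrel of Hspd1 (HSP60) subunits closed by a lid of Hspe1 (HSP10). Hspd1 was between 69.2 and 99.8 CPM in normoxia, with a median of 82.8 CPM. The values at 80% oxygen were 242.9, 147.0, 133.4, 191.2, 160.4 and 207.7 CPM in replicates 1 to 6. As with Hspa9, the groups did not overlap. Normoxia averaged 82.0 ± 10.3 CPM (SD, n = 7) and hyperoxia 180.4 ± 41.2 CPM (SD, n = 6), for a log2 fold change of 1.14 (SE 0.15, edgeR adjusted p = 9.1e-05). Within the letter sets the difference in log2 CPM was 1.10 (B to M) and 1.04 (O to S). Processed pseudogenes of Hspd1 could take some of its reads, and the most counted of these rows, Hspd1-ps3, held 0 to 14 counts per library.

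Hspe1 was less even. It was between 94.2 and 156.1 CPM in normoxia, with a median of 115.8 CPM. In hyperoxia replicates 1 to 6 it was at 30.6, 277.7, 160.2, 221.9, 127.8 and 200.9 CPM. Thus 4 of 6 hyperoxic libraries were above all normoxic ones, and hyperoxia replicate 1, which had the most Hspd1, was below all of them. Over all libraries the log2 fold change was 0.52 (SE 0.33, edgeR adjusted p = 0.281). Without hyperoxia replicate 1 it was 0.75 (SE 0.18, edgeR adjusted p = 0.0050). The difference in log2 CPM was 0.90 within the O to S set. Within the B to M set, which holds that library, its sign turned with the measure: the difference in mean log2 CPM was -0.19, while the edgeR log2 fold change was 0.31 and the mean CPM was 128.4 in normoxia and 156.2 in hyperoxia.

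Hspd1 and Hspe1 stand head to head and are read in opposite directions from a shared start region. On GRCm38, Hspd1 spans 55077835 to 55088243 on the minus strand of chromosome 1 and Hspe1 spans 55088132 to 55091307 on the plus strand. The spans share 112 bases at the start, while the 3′ ends read by Quant-seq lie 13472 bases apart. RefSeq promoter windows (GRCm38.p6, 250 bases before to 50 after the start) were found for 9 of the 10 genes, all but Hspa9. They were searched on both strands for the letters of 6 known motifs, and the sequences below show the match for the chaperonin pair, where 1 stretch serves both genes, and the heat shock element, NRF1 motif or CRE of the other genes that hold one. Capitals mark the motif, and each line runs 5′ to 3′ on the strand of the gene.
Hspe1, heat shock element, chr1:55088053-55088082 (+): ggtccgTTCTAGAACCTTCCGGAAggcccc
Hspd1, the same stretch on the other strand, chr1:55088053-55088082 (-): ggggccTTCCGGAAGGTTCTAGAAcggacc
Clpp, heat shock element, chr17:56990287-56990313 (+): ggtgttgtagTTCCGGAAgccaagccg
Clpx, NRF1 motif, chr9:65294163-65294192 (+): ttagtctccacGCATGCGCagcgtaaactc
Grpel1, NRF1 motif, chr5:36465138-36465167 (+): aaggggcgtccGCGCATGCtcagtgtgggc
Trap1, CRE, chr16:4077839-4077868 (-): gtcgcgcgccaTGACGTCActgagccgccc

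The heat shock element, the recognition sequence of heat shock factors, was searched as TTCNNGAA or GAANNTTC and occurred in windows of 3 of the 9 genes and in 15.1% of all 32851 RefSeq promoter windows. In the chaperonin pair 3 overlapping matches follow each other without a gap, starting 89 bases before the RefSeq start of Hspe1, upstream of the span of Hspe1 and inside annotated exon sequence of Hspd1. RefSeq gives Hspd1 a window at each of 2 starts, and the matches lie 144 bases before the start at 55087932 but after the start at 55088243. In Clpp the match lies 34 bases after the RefSeq start. The ETS motif CCGGAAG shares letters with the heat shock element in all 3 genes, and it occurred in 6 of the 9 genes (Hspd1, Hspe1, Yme1l1, Grpel1, Dnaja3 and Clpp) and in 8.86% of all. The motif of NRF1, a regulator of nuclear genes for mitochondrial proteins, was searched as GCGCATGC and was held by Grpel1 and Clpx, against 2.71% of all windows. The cyclic AMP response element (CRE) TGACGTCA was found in Trap1 alone of the 9, against 1.79% of all windows. The composite motif TGATGCAAT, to which ATF4 and its partners bind, was in the windows of 0 of the 9 genes and in 0.192% of all windows, and CCAAT was in those of 5 of the 9 genes and in 37.4% of all. These matches are descriptions of letters in a window. The genes with the heat shock letters, Hspd1, Hspe1 and Clpp, had log2 fold changes of 1.14, 0.52 and 0.89. Those with a window but without these letters, Clpx, Grpel1, Yme1l1, Dnaja3, Lonp1 and Trap1, had 0.65, 0.60, 0.46, 0.43, 0.27 and 0.20. Whether the letters bear on the changes was not tested.

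Trap1, the HSP90 of the mitochondrion, showed no difference that passed the test. Its normoxic values ran from 13.7 to 25.1 CPM (median 19.3 CPM). At 80% oxygen, replicates 1 to 6 gave 13.4, 29.8, 9.73, 28.5, 19.7 and 35.6 CPM. The hyperoxic libraries fell on both sides of the normoxic range, with 3 above and 2 below it. Trap1 had a log2 fold change of 0.20 (SE 0.27, edgeR adjusted p = 0.647), and its sign turned with limma on the deposited values, at -0.0052 (adjusted p = 0.991). It ran from 0.036 (without hyperoxia replicate 6) to 0.37 (without hyperoxia replicate 3) when 1 library was left out. Within the letter sets it differed in sign in log2 CPM, at -0.43 within the B to M set and 0.72 within the O to S set. Trap1 (chromosome 16, 4039971 to 4077827, minus strand) shares 54 bases at its 3′ end with Dnase1 on the other strand, which was low in both groups at 2.96 ± 0.88 CPM (SD, n = 7) and 3.05 ± 2.05 CPM (SD, n = 6).

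Among the 4 protease genes, Clpp was the one that passed the test with all libraries. ClpP is the peptidase chamber of the matrix protease ClpXP, and ClpX is the AAA+ unfoldase that feeds it. Clpp was between 29.4 and 53.9 CPM in normoxia, with a median of 38.4 CPM. At 80% oxygen, the 6 replicates gave 118, 63.1, 46.2, 73.0, 66.0 and 66.3 CPM. All hyperoxic libraries but replicate 3 were above all normoxic ones, and replicate 1 was far above the rest. Normoxia averaged 38.9 ± 8.53 CPM (SD, n = 7) and hyperoxia 72.2 ± 24.4 CPM (SD, n = 6), for a log2 fold change of 0.89 (SE 0.20, edgeR adjusted p = 0.0051). Without hyperoxia replicate 1 it was 0.72 (SE 0.16, edgeR adjusted p = 0.0029), and within the letter sets the difference in log2 CPM was 0.78 and 1.06. In the B to M set without that library, the log2 fold change was 0.42 and did not pass (SE 0.24, edgeR adjusted p = 0.275). Clpp lies on chromosome 17 (56990305 to 56996188, plus strand).

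Clpx, on chromosome 9 (65294260 to 65330658, plus strand), was between 20.6 and 33.1 CPM in normoxia, with a median of 29.1 CPM. In hyperoxia replicates 1 to 6 it was at 19.8, 40.8, 78.9, 46.0, 49.4 and 33.2 CPM. Here 5 of 6 hyperoxic libraries were above all normoxic ones and replicate 1 was below all of them, the opposite of its place in Clpp. Over all libraries the log2 fold change was 0.65 (SE 0.24, edgeR adjusted p = 0.0664, DESeq2 adjusted p = 0.0398), and without hyperoxia replicate 1 it was 0.81 (SE 0.20, edgeR adjusted p = 0.0055). It also passed with hyperoxia replicate 6 left out, at 0.73. In log2 CPM the difference was 0.51 within the B to M set and 0.52 within the O to S set.

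Lonp1, the ATP-dependent protease that degrades oxidised matrix proteins, did not pass the test. It was between 6.41 and 21.0 CPM in normoxia (median 14.9 CPM). In hyperoxia replicates 1 to 6 it was at 6.43, 21.9, 10.1, 19.9, 16.9 and 22.5 CPM. The groups overlapped nearly over their whole range, and the counts behind them, 12 to 103 per library, were the lowest of the 10 genes. The log2 fold change was 0.27 (SE 0.32, edgeR adjusted p = 0.585), and without hyperoxia replicate 1 it was 0.44 (SE 0.28, edgeR adjusted p = 0.256). The difference in log2 CPM was -0.48 within the B to M set and 1.35 within the O to S set. The interaction of condition and letter set, fitted after seeing the data, had an unadjusted edgeR p of 0.0078 for Lonp1 and an adjusted p of 0.538, and no gene of the 10 passed it after adjustment. Lonp1 lies on chromosome 17 (56614297 to 56626887, minus strand).

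Yme1l1 is an AAA+ protease of the inner membrane that faces the intermembrane space. It was between 82.1 and 122.8 CPM in normoxia, with a median of 114.5 CPM. In hyperoxia replicates 1 to 6 it was at 128.7, 116.8, 207.4, 117.7, 152.2 and 135.4 CPM. Of these, 4 were above all normoxic libraries and 2 lay within the upper part of their range. The log2 fold change was 0.46 (SE 0.16), just short of the threshold in edgeR (adjusted p = 0.0550) and past it in DESeq2 (adjusted p = 0.0295). Without hyperoxia replicate 1 it was 0.50 (SE 0.17, edgeR adjusted p = 0.0324), and it also passed without normoxia replicate 4 (0.53), hyperoxia replicate 2 (0.54) or hyperoxia replicate 4 (0.53). The difference in log2 CPM was 0.58 within the B to M set and 0.20 within the O to S set. Yme1l1 spans 23156369 to 23199260 on the plus strand of chromosome 2.

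**Figure D2:**
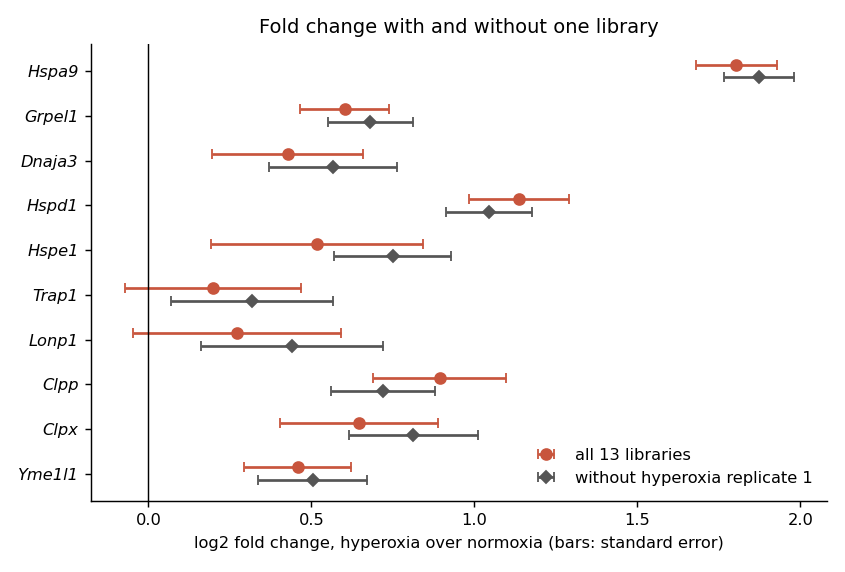
Log2 fold change of each gene, hyperoxia over normoxia (x axis, edgeR), with bars for the standard error; circles use all 13 libraries and diamonds leave out hyperoxia replicate 1. Hspa9 stays at 1.80 and 1.87, Hspe1 moves from 0.52 to 0.75 and Clpx from 0.65 to 0.81, while Clpp moves down from 0.89 to 0.72.

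Within the letter sets alone, edgeR called 1 of the 9 genes other than Hspa9 higher in the B to M set (Hspd1, where 5.34% of all genes were called higher) and 6 of the 9 in the O to S set (Hspd1, Hspe1, Lonp1, Clpp, Dnaja3 and Grpel1, where 11% of all genes were). With hyperoxia replicate 1 left out of the B to M set, 4 of the 9 were called higher (Hspd1, Hspe1, Clpx and Grpel1), where 7.49% of all genes were. Clpp was not called in that fit, at 0.42 (SE 0.24, edgeR adjusted p = 0.275). There Clpx had a log2 fold change of 1.11 (SE 0.27, edgeR adjusted p = 0.0210) and Hspe1 of 0.78 (SE 0.22, edgeR adjusted p = 0.0400), but Dnaja3 stood at 0.12 (SE 0.27), Lonp1 at -0.02 (SE 0.35) and Trap1 at -0.12 (SE 0.37). These fits within the sets were added after the data were seen.

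Whether partners in a complex kept their proportion was tested on the log2 ratio of their CPM values, a measure in which Hspa9 takes no part, with a two-sided exact permutation test over the 13 libraries (smallest possible p = 0.000583) and adjustment over 3 pairs. None of the 3 ratios differed past the threshold. The log2 ratio of Hspe1 to Hspd1 was 0.52 ± 0.39 (SD, n = 7) in normoxia and -0.32 ± 1.36 (SD, n = 6) in hyperoxia, a difference of -0.84 (exact permutation p = 0.0862, adjusted p = 0.259). In hyperoxia replicate 1 this ratio was -2.96, where the other hyperoxic libraries ran from -0.33 to 0.91, and the difference was -0.32 without that library. It was -1.29 within the B to M set and -0.13 within the O to S set. With hyperoxia replicate 2 left out, the difference was -1.09 and passed the exact permutation test (adjusted p = 0.0341).

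The log2 ratio of Clpx to Clpp was -0.42 ± 0.26 (SD, n = 7) and -0.74 ± 1.07 (SD, n = 6), a difference of -0.32 (exact permutation p = 0.516, adjusted p = 0.516) that turned to 0.036 without hyperoxia replicate 1. It was -2.54 in hyperoxia replicate 1 and 0.76 in hyperoxia replicate 3, while the other hyperoxic libraries ran from -0.98 to -0.41 and the normoxic ones from -0.69 to 0.038. For the cochaperones, the log2 ratio of Dnaja3 to Grpel1 was -2.26 ± 0.36 (SD, n = 7) and -2.48 ± 0.46 (SD, n = 6), a difference of -0.23 (exact permutation p = 0.338, adjusted p = 0.507). Its sign differed between the letter sets, at -0.65 (B to M) and 0.34 (O to S).

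**Figure D3:**
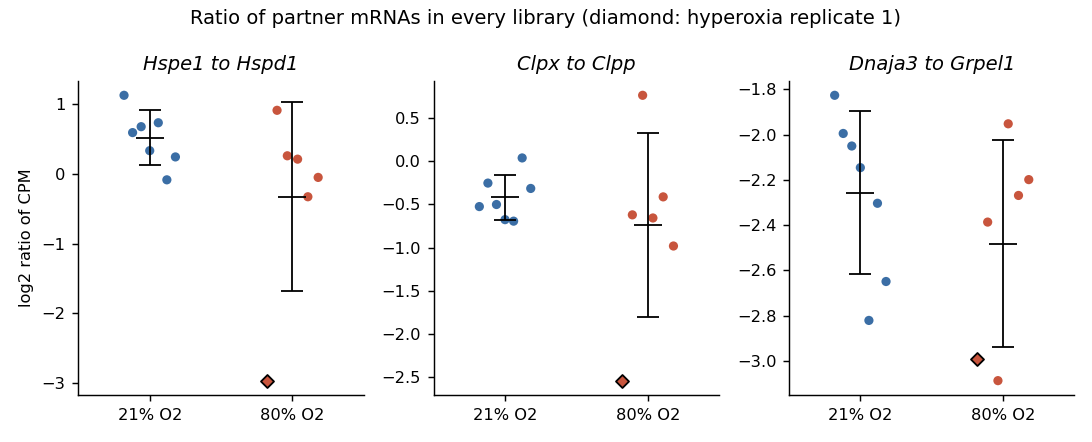
Log2 ratio of the CPM values of 3 partner pairs (y axis) in the 7 libraries at 21% oxygen (blue) and the 6 at 80% oxygen (red); each point is 1 library, line and bars are mean and SD, and the diamond is hyperoxia replicate 1. For Hspe1 to Hspd1 and for Clpx to Clpp the diamond lies below all other points, at -2.96 and -2.54.

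Partners were also compared within each group, where the difference between the groups plays no part. In hyperoxia Clpp and Clpx ran in opposite directions (Pearson r = -0.92, exact permutation p = 0.0375, adjusted over 6 relations 0.225, Spearman rho = -0.71, exact permutation p = 0.136, n = 6), which rested on hyperoxia replicates 1 and 3, since r was 0.30 without them. In normoxia r was 0.55 for this pair (exact permutation p = 0.205; rho 0.46, exact permutation p = 0.302, n = 7), and -0.41 without the 2 libraries farthest from the median. For Hspd1 and Hspe1, r was -0.48 in normoxia (exact permutation p = 0.278; rho -0.29, exact permutation p = 0.556, n = 7) and -0.61 in hyperoxia (exact permutation p = 0.192; rho -0.37, exact permutation p = 0.497, n = 6). Without the 2 farthest libraries r was -0.39 and -0.05. For Hspa9 and Grpel1, r was 0.085 in normoxia (exact permutation p = 0.815; rho -0.11, exact permutation p = 0.840, n = 7) and 0.63 in hyperoxia (exact permutation p = 0.189; rho 0.60, exact permutation p = 0.242, n = 6). Without the 2 farthest libraries r was -0.07 and 0.23, and in hyperoxia it ran from 0.26 to 0.86 with 1 library left out. None of the 6 relations passed after adjustment, for r or for rho.

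The genes whose pattern was most like that of Hspa9 were found by the root mean square difference of mean-centred log2 CPM over the 13 libraries, as a description. They were Rras2 (0.143), Enc1 (0.204), Txnrd1 (0.206), Plxna2 (0.223) and Atf4 (0.234). The measure takes in the difference between the groups, on which the choice of Hspa9 rests in part. It therefore favours genes with a similar log2 fold change, here 1.61 to 1.91 beside 1.80 for Hspa9, and nothing on shared regulation is read from the ranks. Rras2, a small GTPase, went from a mean of 30.2 to 97.4 CPM, and Txnrd1, the cytosolic thioredoxin reductase, from 57.0 to 204.2 CPM. Of the other 9 chaperones and proteases the nearest to Hspa9 was Hspd1, at 0.435 and rank 110 of the tested genes, then Grpel1 at 0.629 and rank 648, and Clpp at 0.638 and rank 692. Hspe1 was the farthest, at 1.02 and rank 5687.

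The rest of the mitochondrial folding and degradation machinery was examined in lists drawn up from general knowledge of the pathways. Of 13 further mitochondrial chaperones and assembly factors tested, edgeR called 2 higher (median log2 fold change 0.28), where 11.8% of all genes were. Grpel2, the paralog of Grpel1, was at 28.4 to 37.0 CPM in normoxia and 61.6 to 94.5 CPM in hyperoxia. It was higher by 1.12 on the log2 scale (SE 0.14), more than Grpel1 itself, and its groups did not overlap. The other was Phb, a subunit of the prohibitin ring of the inner membrane (log2 fold change 0.68). Of 15 further mitochondrial proteases tested, 2 were called higher (median 0.36, with the same share of all genes): Afg3l1, a subunit of the m-AAA protease, by 0.83 (SE 0.18), with 39.3 to 48.9 CPM in normoxia and 62.2 to 135 CPM in hyperoxia, and Lactb, a serine protease-like protein of the intermembrane space, by 0.45 (SE 0.15). Lactb lost its call in 7 of the 13 fits that left out 1 library. Without hyperoxia replicate 1 the numbers were 4 chaperones and 5 proteases, where 15.2% of all genes were called higher. The count of proteases was 5 without hyperoxia replicate 3, where 1496 of 12696 genes were called higher. It was 1 when normoxia replicate 1, 2, 3 or 4 or hyperoxia replicate 5 or 6 was left out. In those fits 1256 to 1346 of 12399 to 12669 genes were called higher.

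Of 27 tested genes of the import machinery, through which clients reach Hspa9, 10 were called higher (median 0.59), where 11.8% of all genes were. The number was 5 with limma on the deposited values, where 8.78% of all genes were called higher, and 4 with the replicate number as a block, where 5.69% were. The 10 were Gfer, Timm22, Tomm20, Tomm6, Tomm70a, Timm10b, Timm17a, Timm44, Timm50 and Chchd4. Gfer, the sulfhydryl oxidase of the intermembrane space relay, was at 12.3 to 23.5 CPM in normoxia and 58.0 to 219 CPM at 80% oxygen, with a log2 fold change of 2.26 (SE 0.30). Tomm20, a receptor of the outer membrane, was at 127.7 to 196.1 and 211.2 to 619 CPM, a log2 fold change of 1.10 (SE 0.21). In both genes the groups did not overlap. Timm22, the channel of the carrier translocase, was called with a log2 fold change of 1.16 (SE 0.35), but only 3 of 6 hyperoxic libraries were above all normoxic ones, and hyperoxia replicate 1 stood at 10830 CPM where the others ran from 1925 to 3239 CPM. Without that library its log2 fold change was 0.62. In these 3 lists edgeR called 0 genes lower, and the number lower was also 0 at an unadjusted p under 0.05, by DESeq2 and by limma-voom. Without hyperoxia replicate 1, 14 import genes were called higher, where 15.2% of all genes were, and Timm17b was called lower.

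Measures of mitochondrial content were set beside these counts. Of 17 nuclear genes for abundant mitochondrial proteins, edgeR called 6 higher (as were 11.8% of all genes) and 0 lower (median 0.39), with 0 lower at an unadjusted p under 0.05, by DESeq2 and by limma-voom. The number higher was 9 without hyperoxia replicate 1 (15.2% of all genes) and 4 with limma on the deposited values (8.78% of all genes). Idh3a of the citric acid cycle (log2 fold change 1.05, and 0.59 without hyperoxia replicate 3, with its call lost under limma on the deposited values), the phosphate carrier Slc25a3 (0.89) and the ATP synthase subunit Atp5b (0.76) led them. Transcripts of mitochondrial DNA did not go that way: none of 13 passed in edgeR in either direction, at an adjusted or unadjusted p under 0.05, nor in DESeq2 or limma-voom. Their median log2 fold change was -0.32, and their summed level was 21890 to 30613 CPM in normoxia and 10267 to 27326 CPM in hyperoxia, lowest in hyperoxia replicate 1. Of 15 genes for the expression of the mitochondrial genome, edgeR called 1 higher and 1 lower, where 11.8% of all genes were higher and 10.8% lower. Fastkd2 was higher (1.03) and the DNA polymerase Polg was lower (-0.45), with a median of -0.08. Mterf4 was lower as well without hyperoxia replicate 1. Cardiac muscle, rich in mitochondria, surrounds the pulmonary veins, and 3 of its 6 markers were lower at 80% oxygen. Their summed level was 80.6 to 240.2 CPM in normoxia, 289.3 CPM in hyperoxia replicate 6 and 4.83 to 43.1 CPM in the other hyperoxic libraries. The part of cardiac muscle and of mitochondrial content in the values of the 10 genes was not tested.

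Of 9 tested regulators of mitochondrial and integrated stress signalling, edgeR called 2 higher and 0 lower, where 11.8% of all genes were higher and 10.8% lower. The number lower was also 0 at an unadjusted p under 0.05, by DESeq2 and by limma-voom. Atf4, a transcription factor of the integrated stress response, was at 57.6 to 85.3 CPM in normoxia and 214 to 317 CPM at 80% oxygen, with a log2 fold change of 1.91 (SE 0.15). Ddit3, which encodes CHOP, was at 12.3 to 23.3 and 30.2 to 65.8 CPM, a log2 fold change of 1.40 (SE 0.20). In both the groups did not overlap. The median of the 9 was -0.20, with 3 of them above 0. Atf5, also on this list, did not pass the filter on low counts and was not tested (means 2.04 CPM in normoxia and 3.72 CPM in hyperoxia). Eif2ak3, which encodes the kinase PERK, was called lower without hyperoxia replicate 1.

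Chaperones of other compartments were set beside the 10 genes, without a test of the difference between lists. Of 23 cytosolic chaperones tested, 7 were called higher (as were 11.8% of all genes) and 0 lower in edgeR (median 0.42), with 0 lower at an unadjusted p under 0.05, by DESeq2 and by limma-voom. They were Hsp90aa1 (log2 fold change 1.18), Cct8 (0.83), Cct4 (0.79), Hspa4, Tcp1, Cct2 and Cct5. Tcp1 and the Cct genes encode subunits of the cytosolic chaperonin. The number called higher was 11 without hyperoxia replicate 1, where 15.2% of all genes were called higher. Of 16 chaperones of the endoplasmic reticulum, edgeR called 2 higher and 2 lower (median -0.10), where 11.8% of all genes were higher and 10.8% lower. The higher ones were the HSP70 of that compartment Hspa5 (0.67) and Canx (0.46). The lower ones were the HSP90 Hsp90b1 (-0.57) and the disulfide isomerase Pdia6 (-0.43). Canx lost its call when normoxia replicate 1 or 3 or hyperoxia replicate 5 was left out, and Pdia6 without normoxia replicate 2.

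**Figure D4:**
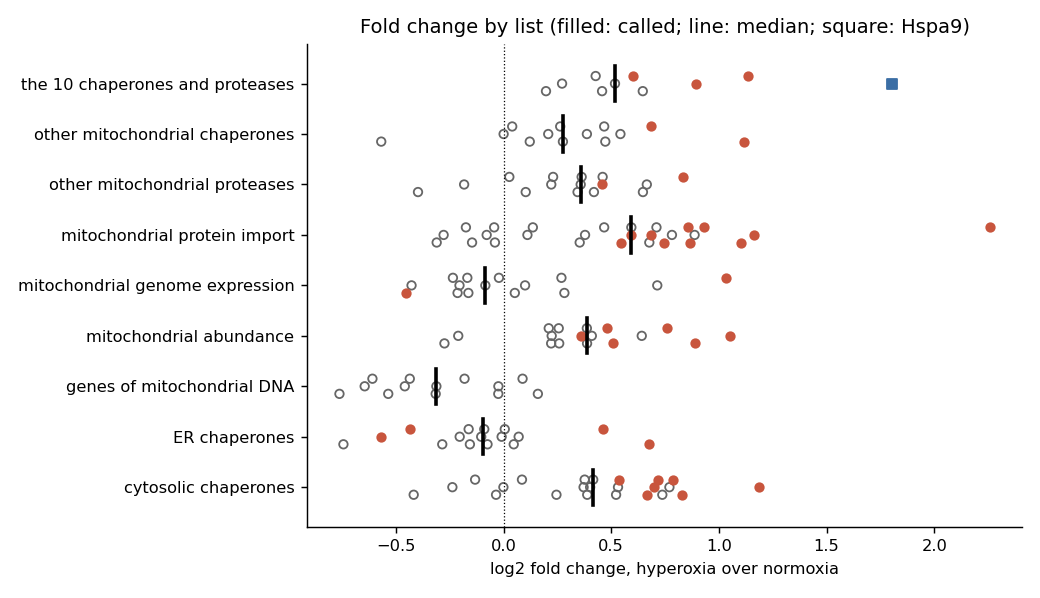
Log2 fold change of single genes, hyperoxia over normoxia (x axis, edgeR), for the 10 chaperones and proteases and 8 further lists; each circle is 1 tested gene, filled where the adjusted p was under 0.05, the square is Hspa9, given without a test, and the black line is the median of the list, taken without Hspa9. The 9 other genes have a median of 0.52 and import genes 0.59, while genes of mitochondrial DNA lie mostly below 0 with a median of -0.32.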

How the data were processed

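Quant-seq libraries of mouse lung, 13 in all, were grouped by their labels. The authors quantified reads in BioJupies, which runs the pseudoaligner kallisto, and deposited raw counts for each gene symbol. The submitters' processing notes name mm10 and limma 3.54.2. They also deposited log10 values, which are log10 of CPM plus 1 on each library's total count. Counts are the basis of the tests. They were fitted with edgeR 4.0.16 in R 4.3.3 (TMM scaling, filterByExpr, glmQLFit and glmQLFTest, 7 against 6 libraries, no covariate), with p-values adjusted over 12496 genes and a threshold of 0.05. SE is the absolute log2 fold change over the square root of F. Log2 CPM values for ratios, correlations and likeness used a prior count of 2. Limma 3.58.1 and DESeq2 1.42.0 served as alternatives. The fit was tested on simulated counts with 200 changed genes. Replicates of a group differed by more than sampling noise in all 36 pairs (chi-square per gene at least 3.9). The floor of 3 counts covers counting error only.

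The 10 genes and all lists were chosen with earlier results of these data known. The genes named are the 10, up to 3 called genes per direction of each list with the largest change, the 5 most like Hspa9, and genes on which a list's count turns; others were named after their values were seen. Atp23, Timm29 and Cct6a were not analysed here. Positions are from GENCODE on GRCm38, promoter windows from RefSeq on GRCm38.p6. Alternatives were DESeq2, limma-voom, limma on the deposited log10 values, scaling by library size alone, testing all genes or those with 10 counts in each library, a prior count of 0.5, a term for the replicate number (a block) or for the letter set, and leaving out each library. The block was fitted without normoxia replicate 7, so its calls do not rest on the same 13 libraries. Fits within a letter set and the interaction were added after seeing the data.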

Additional observations from a re-analysis of the deposited data

Results flagged for a closer look

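A library was singled out where the gap between the highest or lowest value of a group and its nearest neighbour exceeded 0.568 of the group's range for 7 libraries, or 0.625 for 6 (Dixon's test). Of 68 groups examined in this way, 15 were singled out; chance gives about 1 in 20, or 3.4, and 7 of the 15 were hyperoxia replicate 1.

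Among the 10 genes, Hspa9 in normoxia replicate 1 was the lowest of its group, at 110.5 CPM where the others ran from 129.9 to 142.2 CPM, still far below the hyperoxic libraries. Clpp in hyperoxia replicate 1 was the highest of its group, at 118 CPM against 46.2 to 73.0 CPM in the others. The log2 ratio of Hspe1 to Hspd1 was lowest in the same library, at -2.96.

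In the other lists, hyperoxia replicate 1 had the highest value of its group for Afg3l1 (135 CPM), Gfer (219 CPM), Timm22 (10830 CPM), Hspa5 (2160 CPM) and Cct8 (510.4 CPM). Hyperoxia replicate 3 had the highest for Grpel2 (94.5 CPM), Tomm20 (619 CPM), Idh3a (309.9 CPM) and Slc25a3 (1194 CPM). Gfer was lowest in normoxia replicate 1 (12.3 CPM). In normoxia replicate 5, Atp5b was the highest of its group (427 CPM) and Hsp90b1 the lowest (599 CPM).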

How the results depend on the processing

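Hspd1, Clpp and Grpel1 stayed called in the alternatives over both letter sets, except that Grpel1 did not pass with the replicate number as a block (log2 fold change 0.59, edgeR adjusted p = 0.0584). With Hspa9, whose place was fixed by the choice, counted in, the number called higher was 4 and ran from 4 to 8 when 1 library was left out (8 without hyperoxia replicate 1). On the same count it was 2 within the B to M set and 7 within the O to S set. Over both letter sets, 1 single gene changed sign, Trap1 at -0.0052 with limma on the deposited log10 values, and within the B to M set the edgeR log2 fold changes of Lonp1 (-0.30), Trap1 (-0.25) and Dnaja3 (-0.05) were below 0. The count of further chaperones called higher was 2, with 1 under the block and 2 to 4 when 1 library was left out. For further proteases it was 2, with 1 under limma on the deposited log10 values, no filter, library size alone, 10 counts in every library, the block and the letter set as a term, and 1 to 5 with 1 library left out. For import genes it was 10, with 5 under limma on the deposited log10 values and 4 under the block. With 1 library left out, 8 to 14 import genes were called higher and 0 to 1 lower. With 1 library left out, the difference in the log2 ratio of Hspe1 to Hspd1 ran from -1.09 to -0.32 and that of Clpx to Clpp from -0.62 to 0.036, and r ran from -0.75 to 0.18 for Hspd1 and Hspe1 in hyperoxia and from -0.53 to 0.26 for Hspa9 and Grpel1 in normoxia. Among the other named genes, Timm22 (adjusted p = 0.0553) and Idh3a (0.0715) lost their calls with limma on the deposited log10 values and, in edgeR with no filter, so did Polg (0.0532) and Pdia6 (0.0659). These 4 and Phb, Hspa5, Canx, Hsp90b1, Cct4 and Lactb lost them under the block, with adjusted p of 0.0606 to 0.158. The cause of these moves was not tested. The deviations of same-numbered replicates of both groups had correlations of -0.33 to 0.27. No mismatched pairs were set beside these values, so they cannot settle whether the numbers pair the samples. The replicate block, fitted without normoxia replicate 7, which has no hyperoxic counterpart, lowered the calls over all genes. They went from 1473 higher and 1346 lower to 703 and 588. Library size alone gave 1179 and 1579 and limma on the deposited log10 values 1097 and 1729, where the median of all genes was -0.10 and -0.16. Lonp1 and Dnaja3 rest on as few as 12 and 20 counts in a library.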
